A study of Homo sapiens with 25 samples.

Results

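The histone mark H3K4me1 was compared between HCT116 cells that carried the forkhead factor FOXD2 on a lentivirus and HCT116 cells that carried the empty virus. HCT116 is an established human colorectal carcinoma line. Control cells held the pSin vector with no insert, and FOXD2 cells held pSin with the full-length FOXD2 coding sequence. Both were selected with puromycin at 5 µg/ml, so transduction and drug were shared by the groups, and the labels describe stable transduced cells and name no clone. Chromatin was digested with MNase without crosslinking before the precipitation. All H3K4me1 libraries with either vector were taken, 2 control and 2 FOXD2, which make 4 of the 25 libraries of the series and 4 of the 18 that had a list of peaks. Nothing in the labels says that the 2 libraries of a group came from separate cultures, so a p-value reflects how far these libraries vary, and that variation may be technical. The amount of FOXD2 was not measured here, because peak lists give no expression level.

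H3K4me1 is the monomethyl form of lysine 4 on histone H3. MLL3 and MLL4, the enzymes encoded by KMT2C and KMT2D, place it at enhancers, where it marks both primed and active elements, and it also flanks active promoters. H3K27ac separates active enhancers from primed ones, and H3K4me3, the trimethyl form, sits at promoters. FOXD2 belongs to the forkhead family, whose members bind DNA through a winged-helix domain.

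The FOXD2 gene itself (hg38, chromosome 1, 47438044 to 47440691) is short and was overlapped by H3K4me1 peaks in a single list of each group. Peaks covered 0.300 and 0 kb of it in the control lists and 0 and 0.897 kb in the FOXD2 lists. The groups overlapped, and the coverage was too low for the test. Reads from the coding sequence in the vector can map here too.

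H3K4me1 spread over more of the genome in FOXD2 cells, and nearly all of the extra bases lay away from gene starts. The control lists held 101204 and 95756 peaks and the FOXD2 lists 114893 and 129887. Covered bases were 146 and 121 Mb in control and 164 and 177 Mb in FOXD2 cells, and the groups did not overlap. The means were 134 ± 17.7 and 171 ± 9.59 Mb (SD, n = 2), a difference of 36.8 Mb with an exact two-sided permutation p of 0.333, the smallest that 2 libraries against 2 allow. Without control replicate 2 the difference was 24.3 Mb. The files give no read counts, so depth is unknown and its part in the longer FOXD2 lists was not tested. With the lists shortened to the strongest 95756 peaks each, 25.5 Mb of the difference remained.

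Region classes were formed to show where those bases lay. Merged over the 4 lists, the peaks made 150847 regions. Of these, 61998 (41.1%) were common to all 4 lists, 21471 were FOXD2-only, with a peak in each FOXD2 list and none in the control lists, and 6617 were control-only, the converse. FOXD2-only regions held 19.6 Mb per FOXD2 list on average, 53.2% of the net difference, and control-only regions took away 4.30 Mb. Common regions gave a further 14.3 Mb (38.8%), since peaks in them covered 128 and 110 Mb in control but 133 and 135 Mb in FOXD2 cells. The remaining 60761 regions, which other combinations of lists held, gave 7.23 Mb. The excess of FOXD2-only regions over control-only regions depended on list length, at 13364 against 9697 with lists of equal length.

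**Figure D1:**
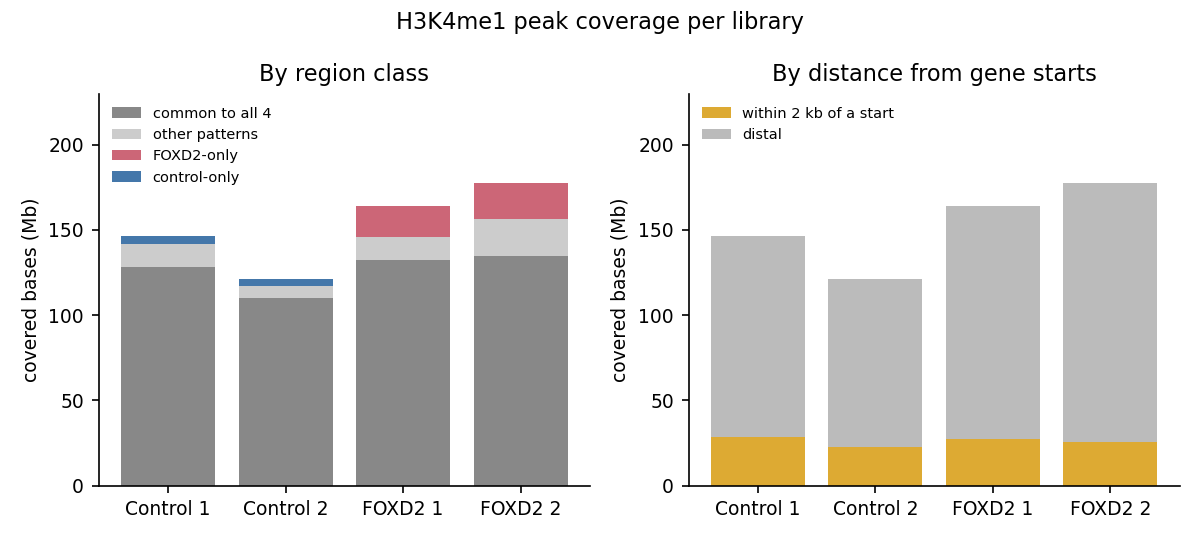
Bases covered by H3K4me1 peaks in each library, in Mb, as stacked bars split by region class (left) and by distance from gene starts (right). FOXD2-only regions make up 53.2% of the net difference in mean height, common regions 38.8% and other patterns 19.7%, less the control-only part, whereas the part within 2 kb of a start is 28.7 and 22.5 Mb in control and 27.1 and 25.5 Mb in FOXD2 cells.

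Group-only regions were narrow, weak and distal in both directions. Their median width was 935 bp for FOXD2-only and 700 bp for control-only regions, against 1855 bp for common regions. A common region merged peaks of every list, and a group-only region those of a single group. This favours wider common regions by construction, and its part in the contrast was not tested. The authors' fold enrichment at the summit had a median of 4.91 and 5.23 at FOXD2-only regions in the FOXD2 lists, and of 4.79 and 5.12 at control-only regions in the control lists. Those medians stood at the 31.2 and 41.5 percentile of all peaks in the FOXD2 lists and the 30.3 and 24.2 percentile in the control lists. Group-only regions were selected for having no peak in the other group, and the part of that selection in their low folds was not tested. Only 2.18% of FOXD2-only and 4.87% of control-only regions lay within 2 kb of a gene start, compared with 31.9% of common regions. Of the FOXD2-only regions, 39.2% lay within 5 kb of a common region and 8.66% more than 50 kb from any. For control-only regions these shares were 45.02% and 10.5%.

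The widest FOXD2-only region lay inside EPAS1, which encodes the hypoxia-inducible factor HIF-2α (chromosome 2, 46322658 to 46337786, 15129 bp). Peaks covered 13533 and 14386 bp of it in the FOXD2 lists, with folds of 11.4 and 8.12. The others of the widest 5 lay in INSC (9716 bp), PRKX (9279 bp) and RELL1 (8706 bp), and in the interval 255 kb from PLEKHG7 (9289 bp). Among control-only regions the widest lay 41.9 kb from IFNE, an epithelial type I interferon (chromosome 9, 21524239 to 21537199, 12961 bp). The next lay in PCDH7, with regions of 8276 and 6049 bp, in KITLG (5284 bp) and in HMGA2 (4780 bp). In PCDH7 the control folds at the wider region reached 16.1 and 18.4, well above the median of control-only regions.

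The question of promoter-near against distal sites was addressed by splitting covered bases at 2 kb from a protein-coding gene start. The promoter-near share was 19.6% and 18.5% in control and 16.5% and 14.4% in FOXD2 cells, so both FOXD2 lists were lower. Means were 19.1 ± 0.784% and 15.5 ± 1.52% (SD, n = 2), a difference of -3.62 percentage points with an exact two-sided permutation p of 0.333. The bases within 2 kb of a start did not separate the groups, at 28.7 and 22.5 Mb in control and 27.1 and 25.5 Mb in FOXD2 cells. The distal bases did, at 118 and 98.8 Mb in control and 137 and 152 Mb in FOXD2 cells. The lower share thus came with similar promoter-near totals and larger distal totals, and the difference in promoter-near bases, 0.703 Mb, took the other sign without control replicate 2 (-2.43 Mb) or FOXD2 replicate 1 (-0.085 Mb).

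The ratio of FOXD2 to control coverage increased with distance from the start. It was 1.01 within 1 kb and 1.05 between 1 and 2 kb, and in these bins the libraries of the groups overlapped. From 2 to 5 kb the ratio was 1.20, from 5 to 10 kb 1.28, and from 10 to 25 kb 1.34. It was highest between 50 and 100 kb, at 1.40, where the control lists covered 19.2 and 16.8 Mb and the FOXD2 lists 23.6 and 26.8 Mb. Beyond 100 kb the ratio was 1.34. In every bin beyond 2 kb both FOXD2 lists lay above both control lists.

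**Figure D2:**
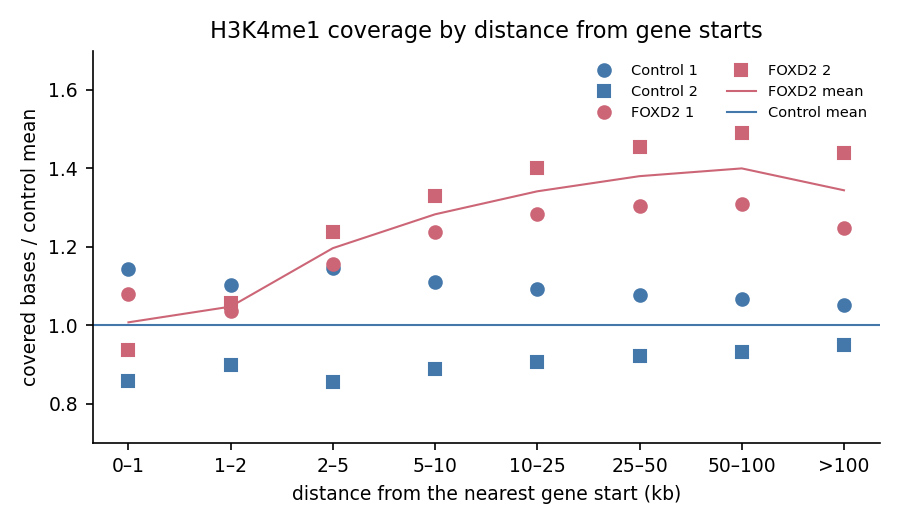
Covered bases by distance from the nearest gene start (kb), each library divided by the mean of the 2 control libraries. Points are libraries and lines are group means. The FOXD2 mean runs from 1.01 in the nearest bin to 1.40 between 50 and 100 kb, and the groups overlap only within 2 kb.

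The distal excess was present on nearly every chromosome. Distal coverage was higher in both FOXD2 lists than in both control lists on 22 of 23 chromosomes, with chromosome 19 as the exception. The distal ratio ran from 1.06 on chromosome 19 to 1.56 on X. For promoter-near coverage the groups overlapped on all 23 chromosomes, with ratios from 0.993 on chromosome 19 to 1.11 on X. Chromosome 19 covered 7.77 and 5.85 Mb in control and 7.22 and 6.90 Mb in FOXD2 cells, and 29.0% of its covered bases were promoter-near. On X, total coverage was 2.50 and 2.04 Mb in control and 3.19 and 3.46 Mb in FOXD2 cells.

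**Figure D3:**
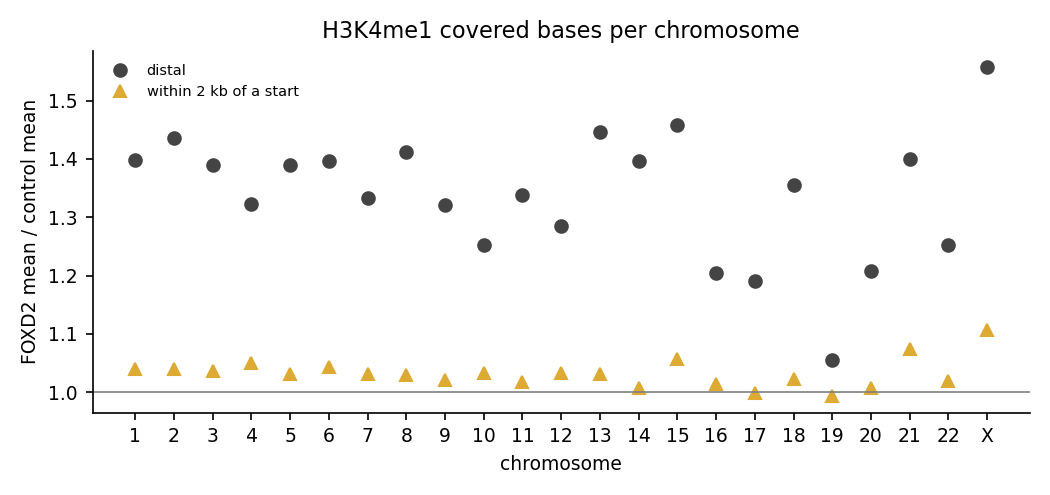
Ratio of mean FOXD2 to mean control coverage on each chromosome, for bases within 2 kb of a gene start (triangles) and for distal bases (circles). Distal ratios lie between 1.06 on chromosome 19 and 1.56 on X, and promoter-near ratios between 0.993 and 1.11.

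Peak width did not separate the groups. The median peak was 959 and 864 bp wide in control and 958 and 894 bp in FOXD2 cells, a difference of means of 14.5 bp with an exact two-sided permutation p of 1.0. It took the other sign without control replicate 2 (-33.0 bp) or FOXD2 replicate 1 (-17.5 bp). Peaks of 10 kb or more, the broad domains, numbered 712 and 420 in control and 667 and 747 in FOXD2 cells, which also overlapped. With lists of equal length the medians were 1017 and 864 bp in control and 1135 and 1179 bp in FOXD2 cells, and the groups no longer overlapped.

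At the 61998 common regions the summit fold was slightly lower in FOXD2 cells while the covered bases were higher. The median fold was 9.54 and 9.67 in control and 9.36 and 8.67 in FOXD2 cells. The difference of the log2 medians was -0.09, with an exact two-sided permutation p of 0.333, and with a library left out it was -0.15 (FOXD2 replicate 1), -0.03 (FOXD2 replicate 2) or -0.05 (control replicate 2). The fold was lower in both FOXD2 lists at 20667 regions (33.3%) and higher at 11945 (19.3%). Fold is a ratio over local background, so the rank of a region among the common regions of its list was compared too. By rank 15792 regions (25.5%) were higher and 16933 (27.3%) lower. Ranks have the same mean in every list, so they cannot show a shift shared by all regions. Covered bases gave the opposite balance, with 20793 regions (33.5%) covered more in both FOXD2 lists and 12034 (19.4%) covered less. The median covered length of a common region was 1411 and 1160 bp in control and 1438 and 1446 bp in FOXD2 cells.

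Distal and promoter-near common regions differed in these counts. Among the 42229 distal common regions, 38.8% were covered more in both FOXD2 lists and 21.7% less. Among the 19769 promoter-near common regions the shares were 22.2% and 14.5%. At promoter-near regions the median covered length was 1546 and 1165 bp in control and 1448 and 1397 bp in FOXD2 cells, so the groups overlapped. At distal regions it was 1334 and 1157 bp against 1432 and 1478 bp, and both FOXD2 lists were higher. The promoter-near to distal difference was described over regions and was not tested.

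Among the strongest common regions were those at GPIHBP1, CUEDC1 and GSE1, which ranked near the top of all 4 lists. Beside GPIHBP1, which carries lipoprotein lipase across capillaries, a region of 3480 bp (chromosome 8, 143218370 to 143221849) had folds of 39.8 and 40.4 in control and 41.2 and 27.2 in FOXD2 cells. In CUEDC1 the folds were 31.4 and 33.8 in control and 33.3 and 26.4 in FOXD2 cells, and in both regions FOXD2 replicate 2 was the lowest. The CUEDC1 region was 67948 bp wide, and peaks covered between 62908 and 67171 bp of it in the 4 lists.

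Several common regions moved from the bottom to the top of the ranking. In PCCB, which encodes a subunit of propionyl-CoA carboxylase, a region of 1963 bp (chromosome 3, 136265644 to 136267606) had folds of 3.92 and 4.27 in control and 24.3 and 17.7 in FOXD2 cells. In B4GALT1, a Golgi galactosyltransferase, the folds were 3.75 and 3.63 against 19.3 and 15.8. In SOS1, the exchange factor that loads RAS with GTP, they were 2.80 and 3.22 against 16.1 and 14.6. The 8 regions with the largest rank increase all lay more than 2 kb from a start, 6 of them inside a gene. The others lay in ZDHHC14, HBS1L and FBXO36, 4.69 kb from TAF1B and 334 kb from C12orf75. Of all common regions, 31.9% were promoter-near and 60.4% overlapped a gene. Of the 15792 regions higher by rank, 4214 were promoter-near.

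The reverse shift was led by VMP1, an autophagy protein of the endoplasmic reticulum. A region of 3434 bp in it (chromosome 17, 59763855 to 59767288) had folds of 21.7 and 24.6 in control and 3.79 and 4.74 in FOXD2 cells. A region in CXXC5, a zinc-finger regulator of Wnt and BMP signalling, had 21.1 and 20.5 against 6.00 and 3.89. At PAG1, a membrane adaptor for Src-family kinase control, a promoter-near region had 17.4 and 17.9 against 3.91 and 4.27. Others lay in WDR86, 0.646 kb from ARHGEF10, 29.6 kb from RBFOX3 and 83.4 kb from NEUROD1. These regions were chosen for the size of their shift, so their values are a description.

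For each gene, the total covered kb within its span was compared, which shows over which genes the mark differed but not where along them. H3K4me1 was higher in FOXD2 cells over 2511 of 13447 genes tested (18.7%) and lower over 221 (1.64%), by limma on log2(covered kb + 1) with Benjamini-Hochberg adjusted p under 0.05. The median log2 change was 0.16 over all genes tested, 1.07 over the higher genes and -0.92 over the lower genes. All called genes had groups that did not overlap, as had 43.4% (higher) and 11.4% (lower) of all genes tested. Coverage follows how much was called in a list, so the fit was repeated with each list scaled to the same covered total. The median of all genes then moved to -0.09, and the calls were 2129 higher (15.8%) and 1327 lower (9.84%), so the higher share of calls was 61.6% in place of 91.9%. Of the calls with unscaled coverage, 2084 higher and all 221 lower genes passed in the scaled fit too. Scaling raised control and cut FOXD2 coverage, which moved every lower gene further down, so it was no check of the lower calls. Without control replicate 1 or control replicate 2, limma passed 0 genes. The unadjusted p was then under 0.05 for 4387 higher and 274 lower genes without control replicate 1, and for 2667 and 1002 without control replicate 2. Without FOXD2 replicate 2 it passed 1272 higher and 96 lower genes. All 2511 and 221 genes kept their direction in the 4 fits that left out a library. Groups that do not overlap make this certain, so it is no check of the calls. A peak in overlapping genes counted for each of them. A gene was tested when its mean over the 4 lists was at least 1 kb, so it could enter through the coverage of a single group.

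**Figure D4:**
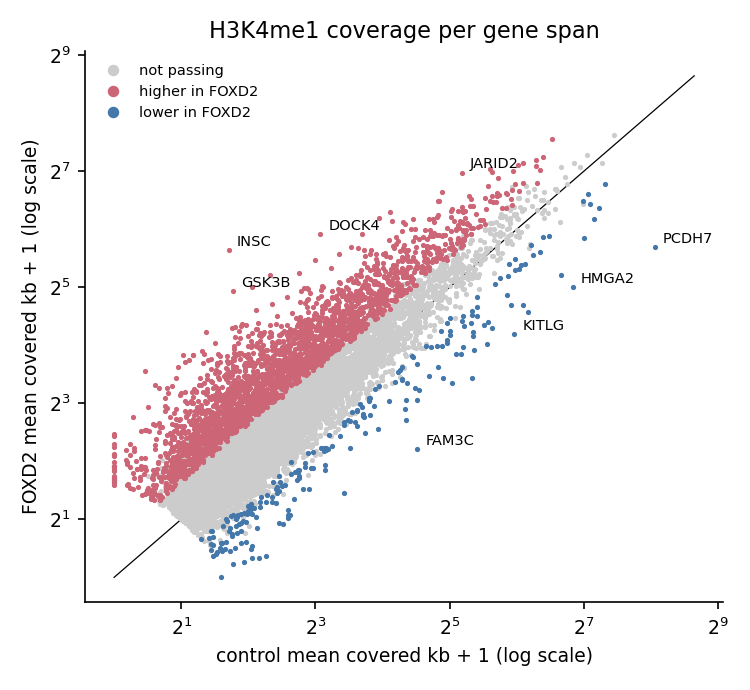
Mean covered kb plus 1 over each gene span in FOXD2 cells against control cells, on log2 axes, for the 13447 genes tested. Red and blue points are the 2511 higher and 221 lower genes, grey points are the others, and the line marks equal coverage.

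The share of genes called increased with gene length. Of genes under 25 kb, 3.78% were higher, and of those between 25 and 100 kb, 21.5%. Between 100 and 250 kb the share was 40.9%, and over 250 kb it was 42.0%. The lower calls followed the same order, from 0.864% of genes under 25 kb to 5.01% of those over 250 kb. In genes under 25 kb the peaks covered 26.1% and 19.5% of the span in control and 24.6% and 23.4% in FOXD2 cells, and the groups overlapped. Over 250 kb they covered 4.16% and 3.68% against 5.19% and 6.06%, with both FOXD2 lists higher. The gene lists below were set against all genes without matching for length, and the part of length in their shares was not tested.

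The largest increase was over INSC, an adaptor that orients the mitotic spindle in polarised cells (chromosome 11, 15111416 to 15269676). Peaks covered 1.69 and 2.85 kb of it in control and 43.0 and 55.1 kb in FOXD2 cells, a log2 change of 3.95 ± 0.23 (SE) with an adjusted p of 0.003 by limma. The change raised coverage from 1.07% and 1.80% of the gene to 27.2% and 34.8%. H3K27ac covered 3.41 and 0 kb of INSC in control and 10.0 and 16.3 kb in FOXD2 cells, so that mark was also higher in both FOXD2 lists.

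GSK3B, the kinase that marks β-catenin for destruction, had 2.88 and 1.93 kb in control and 19.7 and 39.5 kb in FOXD2 cells (log2 change 3.10 ± 0.33). NCK1, an adaptor that links receptor tyrosine kinases to actin, had 3.58 and 2.77 kb against 23.9 and 38.6 kb (2.92 ± 0.25). DOCK4, an activator of Rac, had 6.98 and 7.78 kb against 51.0 and 68.1 kb (2.84 ± 0.19). In these 3 genes the lowest FOXD2 library was several times the highest control library. PLA2G4A, the phospholipase that releases arachidonic acid, had 1.37 and 0.715 kb against 9.09 and 17.5 kb. DAPP1, an adaptor that binds phosphoinositides, had 0.369 and 0.670 kb against 8.95 and 9.06 kb. DGKI, a diacylglycerol kinase, had 0.740 and 0 kb against 13.6 and 7.98 kb. VRK1, a nuclear kinase, SNTB1, a protein of the dystrophin complex, and R3HCC1L completed the 10 largest, with log2 changes of 2.86, 2.82 and 2.68. DGKI, DAPP1 and R3HCC1L had control means of 0.37, 0.52 and 0.93 kb. They met the 1 kb filter only through the FOXD2 lists.

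The largest decrease was over PCDH7, a protocadherin of cell adhesion (chromosome 4, 30720369 to 31146800). Control peaks covered 273 and 256 kb of the gene, 64.1% and 60.1% of its length, and FOXD2 peaks 55.9 and 46.0 kb, 13.1% and 10.8%. The log2 change was -2.36 ± 0.14 (SE), with an adjusted p of 0.003 by limma. H3K27ac over PCDH7 was lower as well, at 125 and 120 kb in control and 20.3 and 2.19 kb in FOXD2 cells. PCDH7 thus carried the mark over most of its span in control cells and kept a small part of it in both FOXD2 lists.

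Other broad control domains were reduced in the same way. HMGA2, an architectural chromatin protein of embryonic and tumour cells, had 124 and 101 kb in control, 87.7% and 71.4% of the gene, and 30.2 and 32.2 kb in FOXD2 cells (log2 change -1.82 ± 0.15). KITLG, the ligand of the receptor KIT, had 71.9 and 51.0 kb against 18.5 and 15.9 kb (-1.76 ± 0.20). GNAI1, an inhibitory G protein subunit, had 40.7 and 37.6 kb against 10.1 and 9.66 kb (-1.89 ± 0.15). FAM3C, a secreted factor linked to epithelial-mesenchymal transition, had 26.4 and 17.4 kb against 4.61 and 2.61 kb (-2.32 ± 0.28). H3K27ac covered little of KITLG, 1.76 and 3.504 kb in control and 2.55 and 1.23 kb in FOXD2 cells, and there the groups overlapped. The others of the 10 largest were shorter domains: ANXA10 and SLC6A20, a proline transporter, and PRF1 (perforin), GBP5 (an interferon-induced GTPase) and CHI3L1 (a secreted chitinase-like protein). SLC6A20, PRF1, GBP5 and CHI3L1 had no H3K4me1 peak in FOXD2 replicate 2. They met the 1 kb filter only through the control lists. SLC6A20 did not pass with a pseudocount of 0.1 kb (adjusted p = 0.109, limma).

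**Figure D5:**
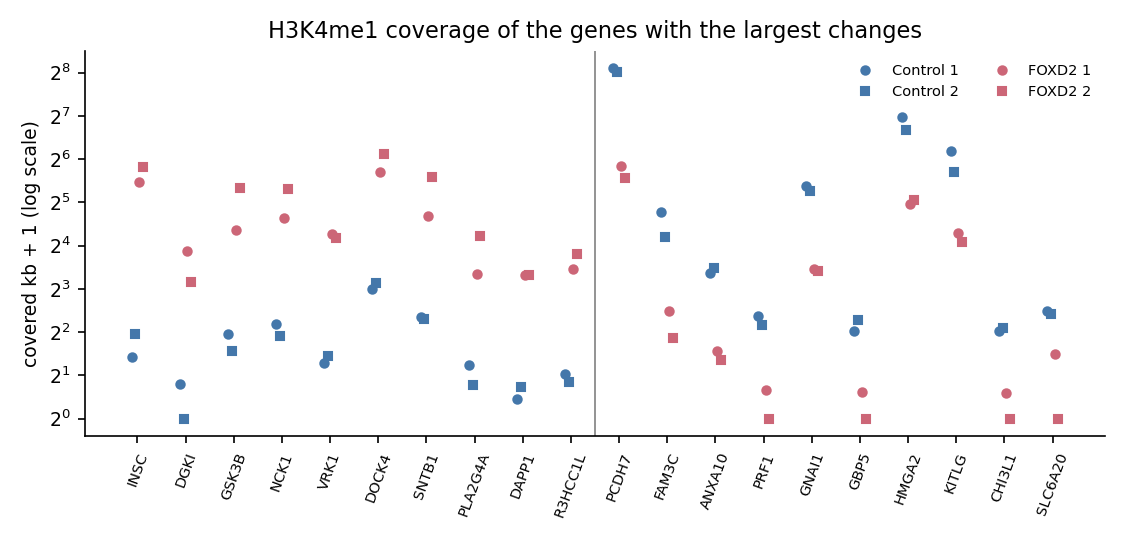
Covered kb plus 1, on a log2 axis, in each library for the 10 genes with the largest increase (left of the line) and the 10 with the largest decrease (right) among those that passed the test. In each gene, as in every called gene, both FOXD2 libraries lie on the same side of both control libraries. INSC and PCDH7 are at the ends of the range.

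The H3K4 methyltransferase complexes were examined because their members write the mark. Of 17 genes, all tested, 4 were higher (23.5%, against 18.7% of all genes) and 0 lower (1.64% of all), with a median log2 change of 0.15, near the 0.16 of all genes. KMT2C, which encodes MLL3, had 3.88 and 3.44 kb in control and 10.9 and 12.4 kb in FOXD2 cells, a log2 change of 1.44 ± 0.18 (SE; adjusted p = 0.004, limma). KDM6A, the H3K27 demethylase of the same complexes, had 15.2 and 13.4 kb against 32.4 and 44.4 kb (1.35 ± 0.19). The subunit PAXIP1 was higher by 1.05. The subunit NCOA6 passed at 0.84, but its adjusted p by limma was 0.099 with lists of equal length, where its log2 change was 0.56. KMT2D, which encodes MLL4, did not pass, with 5.79 and 4.19 kb in control and 4.31 and 4.76 kb in FOXD2 cells (-0.10 ± 0.21; adjusted p = 0.83, limma), and its estimate took the other sign without control replicate 1 (0.09). In the scaled fit the median of the list was -0.09, that of all genes.

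The enzymes that remove the mark and the Polycomb genes were described next. Of 10 H3K4 demethylase genes, all tested, 4 were higher (40%, against 18.7% of all genes) and 0 lower (median log2 change 0.70). RCOR1, the scaffold of the LSD1 complex, had 29.9 and 20.3 kb in control and 56.6 and 67.8 kb in FOXD2 cells. KDM1A, which encodes LSD1 itself, had 4.94 and 4.02 kb against 9.73 and 13.7 kb, and KDM1B and KDM5B passed too. KDM1B met the 1 kb filter only through the FOXD2 lists. Of 12 genes of Polycomb repressive complex 2, which trimethylates H3K27, 4 were higher (33.3%) and 0 lower (median 0.33). JARID2, a cofactor that targets the complex, had 39.6 and 31.0 kb in control and 114 and 135 kb in FOXD2 cells (log2 change 1.80 ± 0.17). EZH2, the catalytic subunit, had 7.096 and 3.84 kb against 11.03 and 17.7 kb, and AEBP2 and MTF2 passed as well. With lists of equal length 3 of the 4 Polycomb calls were lost, with adjusted p by limma of 0.072 for EZH2, 0.080 for AEBP2 and 0.77 for MTF2, whose log2 change went from 0.99 to 0.27. In the scaled fit KDM5B missed the threshold (adjusted p 0.0501, limma) and 1 other Polycomb gene was called lower.

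Enhancer coactivators had the largest share of higher calls of the 20 lists, with no allowance for gene length. Of 15 genes, 14 were tested, 9 were higher (64.3%, against 18.7% of all genes) and 0 lower, and the median log2 change was 0.92 (0.60 in the scaled fit, with 8 higher and 0 lower). MED13, of the Mediator kinase module, had 3.94 and 2.42 kb in control and 7.95 and 12.6 kb in FOXD2 cells. CREBBP, the acetyltransferase CBP, had 12.5 and 7.43 kb against 21.6 and 28.1 kb. CCNC, the cyclin of the Mediator kinase, had 1.08 and 1.10 kb against 3.55 and 4.12 kb, and MED1 had 1.80 and 2.40 kb against 6.34 and 5.22 kb. Both FOXD2 lists were above both control lists in each of the 4 genes, as in every gene called higher. With lists of equal length CREBBP missed the threshold (log2 change 0.84, adjusted p = 0.082, limma).

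Among forkhead genes, 12 of 17 were tested, 4 were higher (33.3%, against 18.7% of all genes) and 0 lower (1.64% of all; median log2 change 0.43). FOXJ3 had 7.76 and 4.44 kb in control and 22.1 and 39.0 kb in FOXD2 cells. FOXO1, a target of insulin signalling, had 6.34 and 5.28 kb against 20.1 and 22.8 kb, and its relative FOXO3 had 26.6 and 25.4 kb against 66.7 and 75.9 kb. FOXP1 also passed (log2 change 0.94). These 4 passed in the scaled fit, in which 1 other forkhead gene was lower.

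Wnt targets were called higher at a share near that of all genes. Of 20 of them, 19 were tested, 3 were higher (15.8%, against 18.7% of all genes) and 0 lower, with a median of 0.21 (-0.09 in the scaled fit, with 3 higher and 3 lower). The Wnt co-receptor LRP6 had 2.97 and 1.91 kb in control and 12.5 and 15.9 kb in FOXD2 cells. ZNRF3, a ligase that removes Wnt receptors, carried a broad domain of 93.0 and 73.4 kb against 148 and 155 kb. NKD1, a feedback inhibitor, had 6.62 and 4.88 kb against 16.5 and 17.5 kb. Of 24 genes of the TGF-beta and BMP pathway, 22 were tested, 7 were higher (31.8%) and 1 was lower (4.55%; median 0.40; 5 higher and 4 lower in the scaled fit). The receptors BMPR1A, ACVR2A and ACVR1 rose by 1.46, 1.16 and 0.97, and the shared mediator SMAD4 by 1.18, from 2.71 and 2.33 kb to 6.97 and 6.98 kb. With lists of equal length the adjusted p of SMAD4 was 0.051 (limma).

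Genes of colon and epithelial identity were compared between the groups, which does not test the labelled tissue. Of the 20 intestinal identity genes, 2 had no H3K4me1 in any list, and of the 13 tested 1 was higher (7.69%, against 18.7% of all genes) and 1 lower (median log2 change 0.39). The lower one was CDH17, the intestinal cadherin, with 5.00 and 4.37 kb in control and 1.49 and 2.47 kb in FOXD2 cells. The higher one, GATA6, had 1.35 and 1.25 kb against 2.94 and 2.69 kb and did not pass in the scaled fit. Of 20 epithelial junction and keratin genes, all tested, 8 were higher (40%) and 0 lower, although the median was 0.09 (-0.24 in the scaled fit, with 4 higher and 1 lower). CDH1, which encodes E-cadherin, had 28.5 and 25.3 kb in control and 47.6 and 51.3 kb in FOXD2 cells. GRHL2, a transcription factor of epithelial cells, had 15.5 and 12.8 kb against 34.2 and 38.9 kb, and the desmosome genes PKP2 and DSP also passed. DSP did not pass with lists of equal length (adjusted p = 0.067, limma).

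Of 20 mesenchymal genes, 14 were tested, 3 were higher (21.4%, against 18.7% of all genes) and 1 was lower (7.14%, against 1.64%; median 0.11; -0.14 in the scaled fit, with 2 higher and 3 lower). ZEB1, a repressor of E-cadherin, had 3.63 and 3.38 kb in control and 13.5 and 18.2 kb in FOXD2 cells. TNC, an extracellular matrix protein, had 0.411 and 1.49 kb against 5.54 and 5.56 kb. COL5A1, a fibrillar collagen, was lower, with 6.30 and 3.16 kb against 0.753 and 1.04 kb. TNC met the 1 kb filter only through the FOXD2 lists and COL5A1 only through the control lists. The epithelial gene CDH1 and its repressor ZEB1 were therefore both among the higher genes.

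Kinase signalling, p53, adhesion and cadherin lists had shares of higher calls near the 18.7% of all genes. In the EGFR and MAPK list, 4 of 19 tested were higher (21.1%) and 0 lower (median 0.25; -0.05 in the scaled fit, with 3 higher and 3 lower). EGFR had 59.5 and 53.2 kb in control and 92.6 and 103 kb in FOXD2 cells, and its ligand TGFA had 27.8 and 26.97 kb against 50.5 and 48.3 kb. Among p53 targets 3 of 20 were higher (15%) and 0 lower (median 0.14; -0.10 in the scaled fit), namely SESN1, the p53 antagonist MDM2 and the death receptor TNFRSF10B, of which MDM2 did not pass with lists of equal length (adjusted p = 0.062, limma). Among focal adhesion and actin genes 5 of 20 were higher (25%) and 0 lower (median 0.25; -0.09 in the scaled fit, with 5 higher and 4 lower). TLN2, which activates integrins, had 20.6 and 20.3 kb in control and 65.7 and 61.3 kb in FOXD2 cells, and the kinase PTK2 had 31.2 and 23.7 kb against 63.9 and 86.7 kb. Of the cadherins and protocadherins 13 of 20 were tested, with CLSTN1 and CDH13 higher and PCDH7 lower (median 0.20; -0.08 in the scaled fit, with 1 higher and 3 lower). CLSTN1 and CDH13 did not pass with lists of equal length (adjusted p of 0.079 and 0.052, limma).

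YAP and AP-1, HOX and ribosomal protein genes held few calls. Only 3.78% of all tested genes under 25 kb were higher, and the part of gene length in these lists was not tested. In the YAP and AP-1 list 1 of 18 tested was higher (5.56%, against 18.7% of all genes), AMOTL1, and 0 were lower (median -0.10). In the scaled fit 7 of that list were lower and the median was -0.39. Of 15 HOX genes tested 0 were higher and 1 was lower (6.67%, against 1.64%; median -0.08), and in the scaled fit 3 were lower and the median was -0.32. The lower gene was HOXA3, with 32.2 and 27.8 kb in control and 21.1 and 18.4 kb in FOXD2 cells. Of 20 housekeeping and ribosomal protein genes 1 was higher (5.00%), HPRT1, and 0 were lower (median 0.02; -0.24 in the scaled fit). HPRT1 met the 1 kb filter only through the FOXD2 lists.

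Markers of other cell types showed no common direction. Of 18 blood markers 5 had no H3K4me1 in any list and 6 were tested, of which 0 passed limma in either direction, the smallest being that of SPI1 (unadjusted p 0.357, adjusted 0.61). Of 10 fibroblast and endothelial markers tested 3 were higher (30%, against 18.7% of all genes), COL6A3, PDGFRA and TEK. COL6A3 met the 1 kb filter only through the FOXD2 lists. TEK did not pass in the scaled fit (adjusted p = 0.117, limma) or with lists of equal length (0.131). Of 10 neural markers tested RBFOX3 was lower (10.0%, against 1.64%).

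Gene starts were compared separately, by covered kb within 2 kb of the start. Of 14159 starts tested, 0 passed limma with Benjamini-Hochberg adjustment in either direction (0.0%), the smallest adjusted p being 0.114. At an unadjusted p under 0.05 there were 688 higher (4.86%) and 376 lower (2.66%). The groups did not overlap at 2352 starts that were higher (16.6%) and 1817 that were lower (12.8%), and the median log2 change was 0.03. Scaled to equal covered totals, 53 starts were higher (0.374%) and 40 lower (0.283%). Leaving out a library gave between 0 and 295 higher and between 28 and 218 lower calls, the most for higher without FOXD2 replicate 1 and for lower without control replicate 2. Within 5 kb of the start, 159 were higher and 27 lower.

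The starts with the smallest p in each direction were mostly covered in a single group. BLNK, an adaptor of B cell receptor signalling, had 0 kb in both control lists and 4.00 kb, the whole window, in both FOXD2 lists. MICAL2, an enzyme that oxidises actin, had 0 kb in both control lists and 3.69 and 3.42 kb in the FOXD2 lists. IL19, BACH1, GRPR and PPIAP40 were likewise covered in FOXD2 lists alone, while LYVE1 and FAM180A had some control coverage. In the other direction, GPR15, a chemoattractant receptor, had 3.42 and 2.65 kb in control and 0 kb in both FOXD2 lists. CHI3L1 had 2.17 and 1.81 kb in control and 0 kb in both FOXD2 lists. EFNB3, PABIR3, PRSS33 and MEOX1 were covered in control lists alone, and OR51I2 and CLDND1 were covered in all 4. None of the 16 passed the adjusted test. LYVE1, PPIAP40, OR51I2, EFNB3, CLDND1 and MEOX1 had no start in the RefSeq promoter table, so their values are coverage at both gene ends. Those with 0 kb in a group met the 0.1 kb filter only through the other group.

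For each direction, the promoters of the 2 starts with the smallest p and a start in the RefSeq table are shown (GRCh38.p14, the gene's own strand, 5′ to 3′), since the mark was present there in a single group. Each holds the 250 bases before the start, and capitals mark the TATA motif TATAAA. The places are chr10:96271570-96271819 on the minus strand for BLNK, chr11:12138140-12138389 on the plus strand for MICAL2, chr3:98531728-98531977 on the plus strand for GPR15 and chr1:203186705-203186954 on the minus strand for CHI3L1.
BLNK: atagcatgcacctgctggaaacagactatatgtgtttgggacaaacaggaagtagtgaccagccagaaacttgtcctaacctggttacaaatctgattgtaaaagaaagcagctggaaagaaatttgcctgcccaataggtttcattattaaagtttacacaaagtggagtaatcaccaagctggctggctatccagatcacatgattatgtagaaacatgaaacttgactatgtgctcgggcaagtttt
MICAL2: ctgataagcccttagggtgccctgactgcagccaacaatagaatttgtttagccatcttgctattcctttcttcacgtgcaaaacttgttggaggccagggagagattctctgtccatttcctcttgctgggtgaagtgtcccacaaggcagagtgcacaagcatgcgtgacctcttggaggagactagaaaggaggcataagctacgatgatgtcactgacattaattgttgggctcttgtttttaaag
GPR15: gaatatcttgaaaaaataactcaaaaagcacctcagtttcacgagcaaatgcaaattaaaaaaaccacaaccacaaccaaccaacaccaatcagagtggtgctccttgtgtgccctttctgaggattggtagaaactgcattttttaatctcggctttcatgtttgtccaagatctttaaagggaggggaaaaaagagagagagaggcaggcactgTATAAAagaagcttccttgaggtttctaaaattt
CHI3L1: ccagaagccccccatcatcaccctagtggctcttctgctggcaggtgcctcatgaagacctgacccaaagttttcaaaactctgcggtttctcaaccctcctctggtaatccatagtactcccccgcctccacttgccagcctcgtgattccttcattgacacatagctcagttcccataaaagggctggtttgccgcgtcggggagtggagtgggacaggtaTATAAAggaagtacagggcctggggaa
The forkhead motif TGTTTAC, the AP-1 motif TGANTCA and TATAAA were searched on both strands in the 250 bases before each start. The forkhead and AP-1 letters were in none of the 4 promoters, and TATAAA was in GPR15 and CHI3L1. Over all 15812 promoters in the table, 2.26% held the forkhead motif, 5.05% the AP-1 motif and 9.25% TATAAA. The shares were 2.23%, 7.09% and 8.88% at the 1790 promoters whose start was covered more in both FOXD2 lists, and 1.98%, 5.21% and 7.12% at the 1363 covered less. These shares are descriptions and were not tested.

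Windows of 100 kb gave a view without gene annotation. Of 15873 windows tested, 5535 were higher in FOXD2 cells (34.9%) and 799 lower (5.03%), by limma with Benjamini-Hochberg adjusted p under 0.05, and the median log2 change was 0.31. In the scaled fit 3772 were higher (23.8%) and 2819 lower (17.8%), so 57.2% of calls were higher in place of 87.4%. All 3772 windows higher in the scaled fit were among the 5535, and all 799 lower windows passed in the scaled fit too. Scaling moved estimates down, so neither overlap is a check of the calls. Leaving out FOXD2 replicate 1 gave 2441 higher and 257 lower calls, and leaving out FOXD2 replicate 2 gave 1085 and 132. There were 3605 higher calls without control replicate 2 and 457 lower calls without control replicate 1. The share of higher windows was smallest on chromosome 19, at 9.43%, and largest on chromosome 15, at 41.0%.

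Called windows were joined into runs of adjacent windows. The 5535 higher windows formed 3067 runs, of which 1829 were a single window and 145 held 5 or more. The longest run had 21 windows (chromosome 1, 233000001 to 235100000) and held PCNX2, MAP3K21, KCNK1, SLC35F3, COA6, TARBP1 and IRF2BP2. Peaks covered 178 and 159 kb of it in control and 372 and 421 kb in FOXD2 cells. A run of 16 windows held JUN, the AP-1 subunit, and among others DAB1, OMA1, MYSM1, FGGY, HOOK1 and CYP2J2, and was covered by 106 and 96.1 kb against 272 and 335 kb. A run of 12 windows on chromosome 12 around BTG1 and EEA1 had 26.0 and 27.4 kb against 103 and 152 kb. Lower windows formed 584 runs, of which 457 were a single window and 11 held 5 or more. How long such runs would be by chance was not tested.

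The longest lower run had 8 windows with MSRB3 and HMGA2 (chromosome 12, 65300001 to 66100000), covered by 340 and 287 kb in control and by 115 and 115 kb in FOXD2 cells. The next held MKX, ODAD2 and MPP7 on chromosome 10, with 145 and 131 kb against 52.2 and 57.2 kb, and PCDH7 on chromosome 4, with 286 and 269 kb against 60.5 and 51.4 kb. The single windows with the largest decrease lay in PCDH7, where 56.0 and 50.8 kb of a window were covered in control and 4.24 and 4.53 kb in FOXD2 cells. Those with the largest increase lay in DOCK4 (0.502 and 0.482 kb against 21.8 and 32.3 kb), in the interval 255 kb from PLEKHG7 on chromosome 12, and in SNTB1, SND1 and DGKI. All of these but the SNTB1 window met the 1 kb filter only through the FOXD2 lists.

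H3K27ac lists from the same cells, 2 for each group, gave another readout of the same regions. Among FOXD2-only H3K4me1 regions, 9.09% and 4.66% were overlapped by H3K27ac in the control lists and 15.9% and 22.2% in the FOXD2 lists, with no overlap between groups. At control-only regions the shares were 28.2% and 20.6% in control and 12.4% and 25.5% in FOXD2 cells, and the groups overlapped. At common regions they were 59.0% and 56.7% against 63.7% and 66.9%. The H3K27ac lists covered 132 and 89.3 Mb in control and 111 and 171 Mb in FOXD2 cells, so their own totals overlapped.

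Genes called by H3K4me1 were also compared by their covered kb of H3K27ac. H3K27ac was higher in both FOXD2 lists than in both control lists at 65.9% of the 2511 H3K4me1-higher genes, against 33.3% of all genes tested and 26.3% of those not called. It was lower at 35.3% of the 221 H3K4me1-lower genes, against 4.18% of all and 4.31% of those not called. The median covered H3K27ac of the higher genes was 2.06 and 1.58 kb in control and 3.66 and 4.09 kb in FOXD2 cells. For the lower genes it was 6.33 and 4.50 kb against 2.37 and 4.30 kb. Higher genes were longer than those not called, with medians of 92.5 and 27.1 kb, and the part of length in these shares was not tested.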

How the data were processed

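Peak lists from H3K4me1 chromatin immunoprecipitation in 2 control and 2 FOXD2 libraries were analysed. Per the submitters' processing notes, the build was hg38 and the tools were MACS2 2.2.7.1, Bowtie2 2.3.4.1, cutadapt 3.4, bedtools and Picard. The authors deposited a separate narrowPeak list for every library and pooled none. Which background library each call used was not found in these sources. The series holds 1 histone input library for control cells and 1 for FOXD2 cells. If each served its own group, differences between the inputs cannot be told apart from those between the groups. Each deposited list holds a fold enrichment, a ratio over local background, and p-values and q-values as −log10, with a largest q of 0.00998. Peak names in the list of control replicate 1 carry no replicate number, so samples were taken from the labels.

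Between 12 and 20 peaks per list lay off chromosomes 1 to 22 and X and were dropped. The 4 lists were merged (gap 0) into regions, and 1 bp made a list hold a region. Covered kb was summed per gene span, per window of 100 kb and within 2 kb of starts. Starts came from the RefSeq promoter table for 15812 of 19974 protein-coding genes, and both gene ends stood in for the other 4162. Features with a mean of at least 1 kb (starts 0.1 kb) were fitted with limma 3.58.1 (R 4.3.3, trend) on log2(kb + 1) or log2(kb + 0.1), tested on simulated data. Single values were compared by exact two-sided permutation tests. Python 3.11.15, numpy 2.4.6, pandas 2.3.3 and matplotlib 3.10.9 were used.

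The comparison, the 20 gene lists (367 genes, all matched) and the tests were chosen with earlier results of these data known. Named were FOXD2, KMT2C, KMT2D and KDM6A, then the 10 genes, 8 starts and 5 windows with the largest log2 change per direction among those that passed (smallest p where none did). Then came up to 4 members per list, the 5 strongest common regions, the 8 with the largest rank shift per direction and the 5 widest group-only regions. Some of these items are not reported here. The alternatives were a stricter threshold, equal list lengths, each library left out, other pseudocounts, filters, distances, windows and overlaps, scaled coverage and a replicate block. With 2 libraries per group and no counts, precision rests on the spread between libraries alone.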

Additional observations from a re-analysis of the deposited data

How the results depend on the processing

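The higher total and distal coverage and the lower promoter-near share in FOXD2 cells kept their direction under every alternative run. Leaving out a library could not reverse these 3, since their groups did not overlap. A replicate block leaves a difference of means unchanged. Total coverage differed by 24.3 to 49.3 Mb when a library was left out, and the promoter-near share by -4.70 to -2.54 percentage points. The log2 difference of the fold at common regions ran from -0.15 to -0.03. With a library left out, peak width differed by -33.0 to 62.0 bp and promoter-near bases by -2.43 to 3.84 Mb, and both reversed without control replicate 2 (-33.0 bp, -2.43 Mb) and without FOXD2 replicate 1 (-17.5 bp, -0.085 Mb). With a library left out, the rank counts at common regions ran from 23780 to 25651 higher and from 25248 to 27287 lower. FOXD2-only regions then numbered 24417 to 45308 and control-only regions 9336 to 16900, by construction, since 1 list fewer had to hold or lack the region. Equal list lengths left 13364 FOXD2-only regions. Gene calls with a library left out ran from 0 to 2137 higher and from 0 to 153 lower, start calls from 0 to 295 and from 28 to 218, and window calls from 1085 to 5745 and from 132 to 731. The lone library of a group is then assumed to vary like the other group. Scaling to equal covered totals gave 1327 lower genes, 53 higher and 40 lower starts, and 2819 lower windows. Gene spans extended by 10 kb gave 395 lower genes, starts within 5 kb gave 159 higher and 27 lower calls, and windows of 200 kb gave 447 lower calls. Chosen after seeing the data were the alternatives for promoter-near and distal bases, for the group-only and rank counts and for starts with a table entry. The log2 change of KMT2D ran from -0.30 to 0.090 with a library left out and reversed without control replicate 1. Causes of these changes were not tested.

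The groups share replicate numbers 1 and 2. Deviations of same-numbered libraries correlated by 0.076 over genes, 0.026 over starts and 0.064 over windows. With 2 libraries per group these values cannot show whether same-numbered libraries were prepared together, and the labels do not say. With a replicate block 2022 genes were higher and 186 lower, 4809 windows were higher and 640 lower, and 0 starts passed in either direction. The listed genes NCOA6 (adjusted p = 0.053, limma), DSP (0.064), PRRX1, AMOTL1 (0.067), EGFR (0.058), SPRED2 (0.133), CLSTN1 (0.060), CDH13 (0.069), HOXA3 (0.112), TEK (0.051) and RBFOX3 (0.068) were not called with the block. The exact permutation p for the single values within the block cannot go below 0.5.

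Among the named list genes, other alternatives also ended calls, with adjusted p by limma. With lists of equal length these were NCOA6, EZH2, AEBP2, MTF2, CREBBP, DSP, PRRX1 (0.123), SMAD4, MDM2, CLSTN1, CDH13 and TEK. With the stricter peak threshold they were NCOA6 (0.100), MTF2 (0.775), GATA6 (0.051), DSP (0.053), PRRX1, MDM2 (0.074) and TEK (0.064). In the scaled fit they were KDM5B, GATA6 (0.067), PRRX1 (0.052), SPRED2 (0.070), CDH13 (0.154) and TEK. With gene spans extended by 10 kb they were NCOA6 (0.061), MTF2 (0.092), CDH17 (0.051) and HPRT1 (0.233). Without the filter on low values 16 named genes fell short, with adjusted p from 0.051 to 0.075.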

Other observations

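H3K4me3 and MLL4 gave further readouts of the region classes. In the control and the FOXD2 list of H3K4me3, 1 library each, the mark overlapped 45.05% and 43.2% of common H3K4me1 regions, 0.149% and 0.256% of FOXD2-only regions and 1.48% and 1.01% of control-only regions. MLL4 overlapped 18.3% and 17.8% of common regions in the control lists and 17.8% and 6.66% in the FOXD2 lists. At FOXD2-only regions the MLL4 shares were 0.130% and 0.028% in control and 0.843% and 0.387% in FOXD2 cells, so both FOXD2 lists were higher, although FOXD2 replicate 2 held 4676 MLL4 peaks against 13571 to 22493 in the other libraries. At control-only regions they were 0.937% and 0.589% against 2.25% and 0%, and the groups overlapped.

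The balance of fold at common regions depended on their strength. Of the 12261 regions with the highest mean rank over the 4 lists, 35.3% had a lower and 10.5% a higher fold in both FOXD2 lists, with medians of 16.9 and 17.9 in control and 16.7 and 14.2 in FOXD2 cells. Of the 12429 regions with the lowest mean rank, 30.2% were lower and 21.4% higher, with medians of 5.19 and 5.50 against 5.12 and 5.05. By rank among the common regions, which has the same mean in every list, 23.9% of the strongest regions were lower and 23.8% higher. Covered kb per gene correlated by 0.97 across genes between replicates of either group and by 0.86 to 0.90 between groups, on the log2(kb + 1) scale, as a description over genes that share the 4 libraries.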
